A study of Mus musculus with 10 samples.

Results

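The genes described here are the apolipoproteins Apoa1, Apoa2, Apoa4, Apoa5, Apob, Apoc1, Apoc2, Apoc3 and Apoe, together with Mttp, the gene of microsomal triglyceride transfer protein. They were chosen by symbol from the deposited count table, and all 10 were found among its 24537 symbols and among the 13909 genes that passed the filter on low counts. RNA was sequenced from 10 whole livers of male mice. All mice carried an adeno-associated virus of serotype 8 (AAV8) that drives the small Cas9 of Staphylococcus aureus (saCas9) from TBG, a hepatocyte promoter, with a guide RNA from the U6 promoter, so the controls also received virus and nuclease. Young controls had a guide to Rosa26, a locus used as a neutral target, with virus at 7 months and liver taken at 9 months (3 livers). Old controls had the Rosa26 guide, with virus at 23 months and liver at 25 months (3 livers). Old Cd44 knockouts had a guide to Cd44, a cell surface receptor gene, at the same ages as the old controls (4 livers, of which replicates 1 and 2 are labelled g4 and replicates 3 and 4 g2). TBG limits the nuclease to hepatocytes, so the other cells of the whole liver are not its target.

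Apolipoproteins are the protein part of lipoproteins, the particles that carry triglyceride and cholesterol through the blood. In the liver, MTTP moves lipid onto newly made APOB in the endoplasmic reticulum to form very low density lipoprotein (VLDL), and APOA1 takes up cholesterol from cells to form high density lipoprotein (HDL). Smaller, exchangeable apolipoproteins then set how fast the particles are handled: APOC2 is the cofactor of lipoprotein lipase and APOA5 raises its action, APOC3 holds it back, and APOE is the ligand through which liver receptors take up remnants. Several of these genes lie in clusters. Apoa1, Apoc3, Apoa4 and Apoa5 span 43.34 kb at chr9:46228580-46271919, and Apoe, Apoc1, Apoc4 and Apoc2 span 27.61 kb at chr7:19671579-19699188 (GRCm38, the assembly also named mm10, GENCODE M21 annotation).

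Between old and young control livers, Apoa4, Apoa5 and Mttp were lower at an adjusted p under 0.05, as were 8.66% of all genes tested. No gene of the 10 was higher at this threshold. With 1 liver left out, the call of Apoa4 held in 0 of 6 fits and those of Apoa5 and Mttp in 1 of 6 each. The 250 bases before the RefSeq start of these 3 genes, and of Apoa1 as the cluster neighbour that did not pass the test, are shown here from the GRCm38.p6 table. Both strands were searched for CAAAGTCCA, CAAAGGTCA and CAAAGTTCA, which are forms of the HNF4A half-site. They were also searched for TATAAA, as in a core promoter. Capitals mark a match, and no match of the motifs overlaps another in these windows. Promoters of 8 of the 10 genes were in the table. The Apoa1 window lies at chr9:46228380-46228629, that of Apoa4 at chr9:46240594-46240843 and that of Apoa5 at chr9:46268358-46268607, all on the plus strand. The Mttp window lies at chr3:138143419-138143668 on the minus strand. These RefSeq starts are not the GENCODE starts. In GENCODE, Apoa1 starts at 46228580 and Apoa4 at 46240696, so parts of both windows lie inside the annotated genes. The Mttp window lies wholly inside the GENCODE span of Mttp (chr3:138089854-138144968).
Apoa4 promoter: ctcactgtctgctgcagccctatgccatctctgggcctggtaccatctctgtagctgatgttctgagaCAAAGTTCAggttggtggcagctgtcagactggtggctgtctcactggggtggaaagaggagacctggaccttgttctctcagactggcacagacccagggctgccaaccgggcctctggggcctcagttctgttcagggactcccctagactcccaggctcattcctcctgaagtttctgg
Apoa5 promoter: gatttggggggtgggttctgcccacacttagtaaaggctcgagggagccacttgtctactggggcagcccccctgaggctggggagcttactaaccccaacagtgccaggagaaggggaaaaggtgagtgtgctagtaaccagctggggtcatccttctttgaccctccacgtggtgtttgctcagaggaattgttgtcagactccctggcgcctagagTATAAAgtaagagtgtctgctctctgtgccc
Mttp promoter: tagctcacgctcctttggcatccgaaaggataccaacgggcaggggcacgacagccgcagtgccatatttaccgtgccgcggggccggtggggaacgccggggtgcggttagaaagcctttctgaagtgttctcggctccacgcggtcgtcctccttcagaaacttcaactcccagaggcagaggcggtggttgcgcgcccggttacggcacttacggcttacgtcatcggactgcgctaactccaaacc
Apoa1 promoter: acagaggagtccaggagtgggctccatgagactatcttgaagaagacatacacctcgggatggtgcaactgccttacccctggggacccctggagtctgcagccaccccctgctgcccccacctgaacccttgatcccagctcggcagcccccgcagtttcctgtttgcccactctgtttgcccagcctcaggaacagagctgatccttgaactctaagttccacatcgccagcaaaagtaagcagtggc
Apoa4 held CAAAGTTCA at 182 to 174 bases before the RefSeq start used here, which lies downstream of its GENCODE start. This run of letters was found in 0.33% of 32851 promoters of this length. Any of the 3 HNF4A forms was found in 1.14% of promoters, and Apoa4 was the only 1 of the 8 genes with a match. Apoa5 held TATAAA at 31 to 26 bases before this start, and it has another RefSeq start downstream, from which the same match lies at 56 to 51 bases. TATAAA was found in 12.4% of promoters. The Mttp and Apoa1 windows held none of these letters, which says nothing about the factors. A match is a description of the sequence and not a measured site.

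Total counts were 15821198 to 21710228 per liver, where 3 counts correspond to at most 0.198 CPM, the count scaled to library size. Values are CPM on library sizes scaled by the trimmed mean of M values (TMM). The labels do not say whether each library came from a separate animal, so p-values measure the spread between these samples, which may be technical in part. Cd44 lay at 16.6, 11.1 and 10.1 CPM in young, 14.2, 30.0 and 25.9 in old control, 18.9 and 29.0 in guide 4 and 17.6 and 13.1 in guide 2 livers. The libraries labelled knockout were thus not separated from old controls by Cd44 (log2 fold change -0.25 (SE 0.30), edgeR adjusted p = 0.896), and every knockout direction given here rests on the labels. Whole-liver RNA includes the cells that TBG does not reach. The 9 hepatocyte markers measured summed to 68740 to 112910 CPM in all livers. Markers of several other cell types were higher in old control livers, while none of 7 cholangiocyte markers passed (sums of 32.0 to 48.6 CPM in young and 30.8 to 53.3 CPM in old controls). The 12 Kupffer cell and macrophage markers summed to 326 to 478 CPM in young, 634, 2224 and 1215 CPM in old control replicates 1, 2 and 3, and 578 to 1106 CPM in knockout livers, and 10 of the 12 rose with age. The 6 enterocyte markers summed to 61.3 to 80.9 CPM in young, 35.9 to 61.8 CPM in old control and 57.2 to 94.4 CPM in knockout livers, nearly all of it Fabp2 (35.7 to 93.7 CPM), with Vil1 at 4 to 14 counts and Lct at 0 to 3 counts per liver. Sis, Alpi and Rbp2 had 0 counts in every liver. Old control replicate 3 stands apart in several of the values given here, and the number in its library name lies far from those of the other 9, which fall close together. Whether it was prepared or sequenced apart from them is not given in the sources used here.

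Together the 10 genes took 3.55% to 5.99% of all counts in a liver, with old control replicate 3 lowest and old control replicate 1 highest, and Apoe alone was 38.7% to 47.2% of that sum. Levels of different genes were compared per kb of the longest annotated transcript. In CPM per kb, as a mean over all 10 livers, Apoe was highest at 14230 ± 1666 (SD, n = 10). Apoa2 at 11894 ± 2870.4 and Apoa1 at 9026 ± 1406 came next, and these neighbours were not fully separated: Apoe was above Apoa2 in 8 of 10 livers, Apoa2 above Apoa1 in 8 and Apoa1 above Apoc1 in 7. Apoc1 (7814 ± 2125), Apoc3 (2763 ± 706) and Apoa5 (585 ± 138) were each above the next gene in all 10 livers. At the low end stood Apoc2 at 261 ± 47.0, Apob at 196 ± 49.2, Apoa4 at 169 ± 64.6 and Mttp at 69.5 ± 16.1. Apoc2 was above Apob in 7 of 10 livers, and with the median transcript length in place of the longest their order was the other way round. Apoe, Apoa2 and Apoa1 thus had the highest mean RNA levels per kb and Mttp, of VLDL assembly, the lowest. Apoa4, also a secreted protein of HDL, was next to Mttp at the low end.

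**Figure D1:**
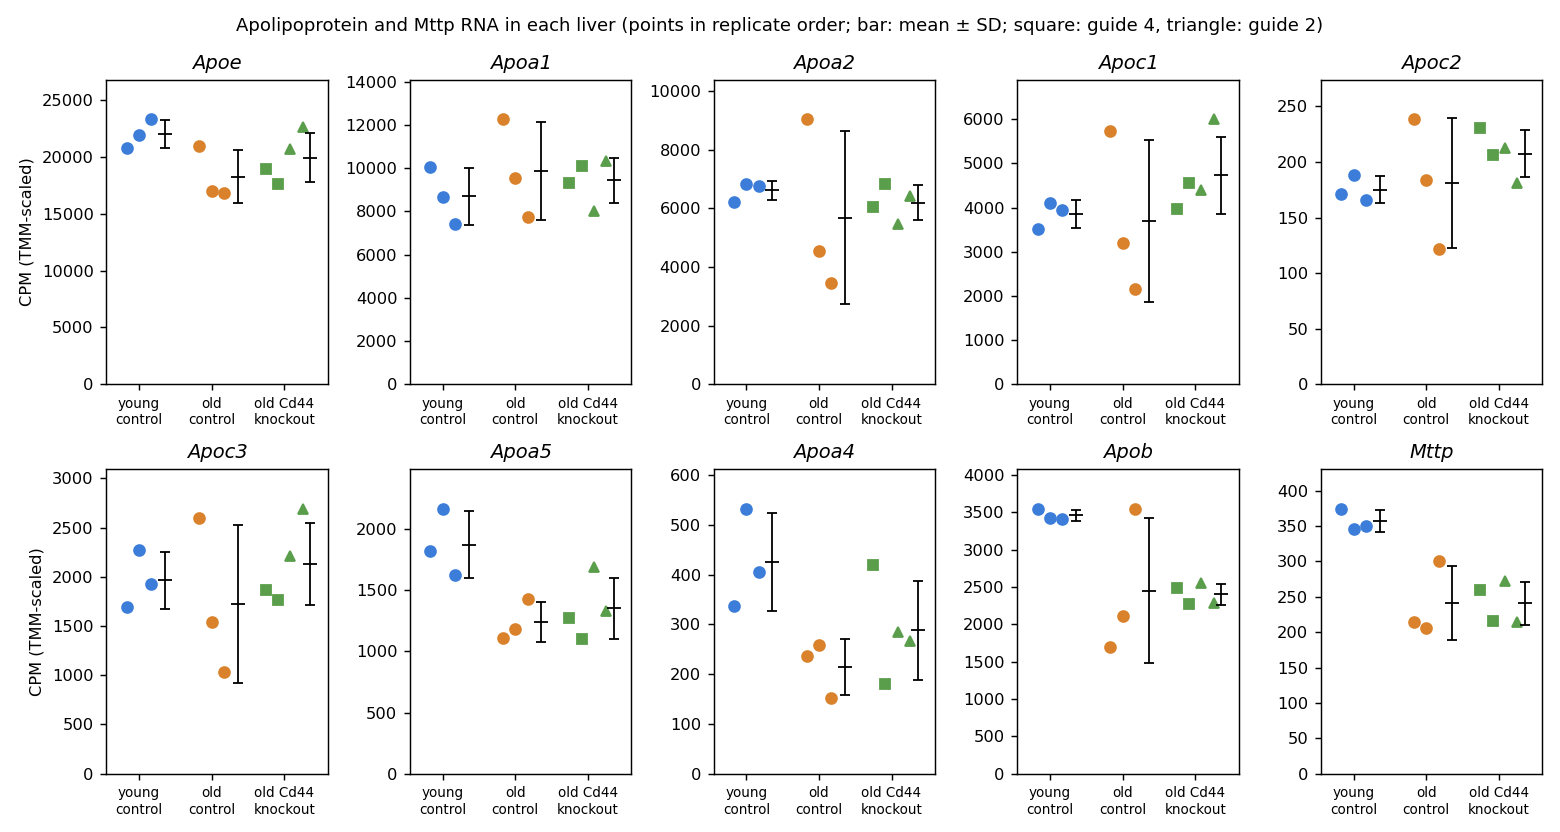
TMM-scaled CPM of each gene in the 10 livers, 1 point per liver in replicate order, with the mean and SD of each group beside the points and a separate axis from 0 for each gene. For Apoa4, Apoa5 and Mttp the 3 old control points all lie below the 3 young points, while for Apob old control replicate 3 lies with the young livers.

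The comparison of old with young control livers asked how these genes differ with age in mice that had the same control virus. With edgeR's quasi-likelihood test over all 13909 genes, 3 of the 10 genes fell and none rose at an adjusted p under 0.05. Of all genes tested, 22.8% passed in either direction, 14.1% were higher and 8.66% were lower in old livers. The median log2 fold change was -0.24 over the 10 genes and 0.035 over all genes. The values were below 0 for 8 of the 10, but 4 of these 8 (Apoa2, Apoc1, Apoc3 and Apoe) lay above 0 when libraries were scaled to total counts only. That scaling moved the median of all genes to 0.34. In whole liver, fewer cells of a type and less RNA per cell cannot be told apart. The 9 hepatocyte markers tested were all lower in old control livers, none past the threshold, with a median log2 fold change of -0.24. Their part in the values of the 10 genes was not tested.

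Mttp (chr3:138089854-138144968, minus strand), which loads lipid onto APOB, had 374, 345 and 350.1 CPM in the young livers and 215, 206 and 301 CPM in the old controls. The old control livers all lay below the young ones, with replicate 3 nearest to them. The group means were 357 ± 15.5 CPM (SD, n = 3) and 241 ± 52.4 CPM (SD, n = 3), and edgeR's estimate was -0.57 (SE 0.17) on the log2 scale, with an adjusted p of 0.0356. Apob (chr12:7977648-8016835, plus strand), the structural protein of VLDL that MTTP loads, had 3541, 3425 and 3411 CPM in young and 1697, 2105 and 3546 CPM in old control livers. Old control replicates 1 and 2 were below all young livers, and replicate 3 was above all of them. The log2 fold change of Apob was -0.50 (SE 0.23) and did not pass (edgeR adjusted p = 0.137). Without old control replicate 3 it was -0.87 with an adjusted p of 0.00277, so 1 library decides this call. Calls also rose over all genes in that fit, to 5327 from 3172 with all livers.

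Apoa5 (chr9:46268633-46271919, plus strand), which promotes the clearance of plasma triglyceride, had 1822, 2163 and 1621 CPM in young and 1110.3, 1182 and 1425 CPM in old control livers. The groups did not overlap, and the gap between the lowest young and the highest old control liver was smaller than the range within either group. The means were 1869 ± 274 CPM (SD, n = 3) and 1239 ± 165 CPM (SD, n = 3), and the fitted log2 fold change was -0.59 (SE 0.19), at an adjusted p of 0.0444 in edgeR. Apoa4 (chr9:46240696-46243459, plus strand), a lipid-binding apolipoprotein of chylomicrons and HDL that the mouse liver makes in varying amounts with feeding state, had 338, 532 and 405 CPM in young and 235, 258 and 152 CPM in old control livers. Every old control liver was below every young one. The means were 425 ± 98.7 CPM (SD, n = 3) and 215 ± 56.0 CPM (SD, n = 3), and the log2 fold change of -0.98 (SE 0.30) was the largest in size of the 10 genes (edgeR adjusted p = 0.0375). The labels give no feeding state or hour of collection, so neither can be set beside Apoa4. Non-overlap in this direction was seen for 3 of the 10 genes (Apoa4, Apoa5 and Mttp) and for 18% of all genes tested.

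These 3 calls lay close to the threshold. Leaving out any 1 of the 6 livers ended the call of Apoa4, with adjusted p-values of 0.0508 to 0.144 and log2 fold changes of -1.14 to -0.79. For Apoa5 and Mttp the call held only without old control replicate 3 (adjusted p = 0.0172 and 0.00428) and was lost without any of the other 5 livers, where the highest adjusted p-values were 0.163 and 0.133. The fit without old control replicate 3 called 5327 genes in all, against 3172 with all livers. Apoa4, Apoa5 and Mttp kept their sign in every fit with 1 liver left out. Upper quartile scaling, total counts and a fit on the 6 libraries alone also ended all 3 calls, and leaving out the filter ended that of Apoa5. Under total counts, the log2 fold changes were -0.65 for Apoa4, -0.29 for Apoa5 and -0.28 for Mttp, where the median of all genes was 0.34. Relative to that median they were -0.99, -0.63 and -0.62. Taking off the median largely undoes the change of scaling, so these last values are not separate support.

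**Figure D2:**
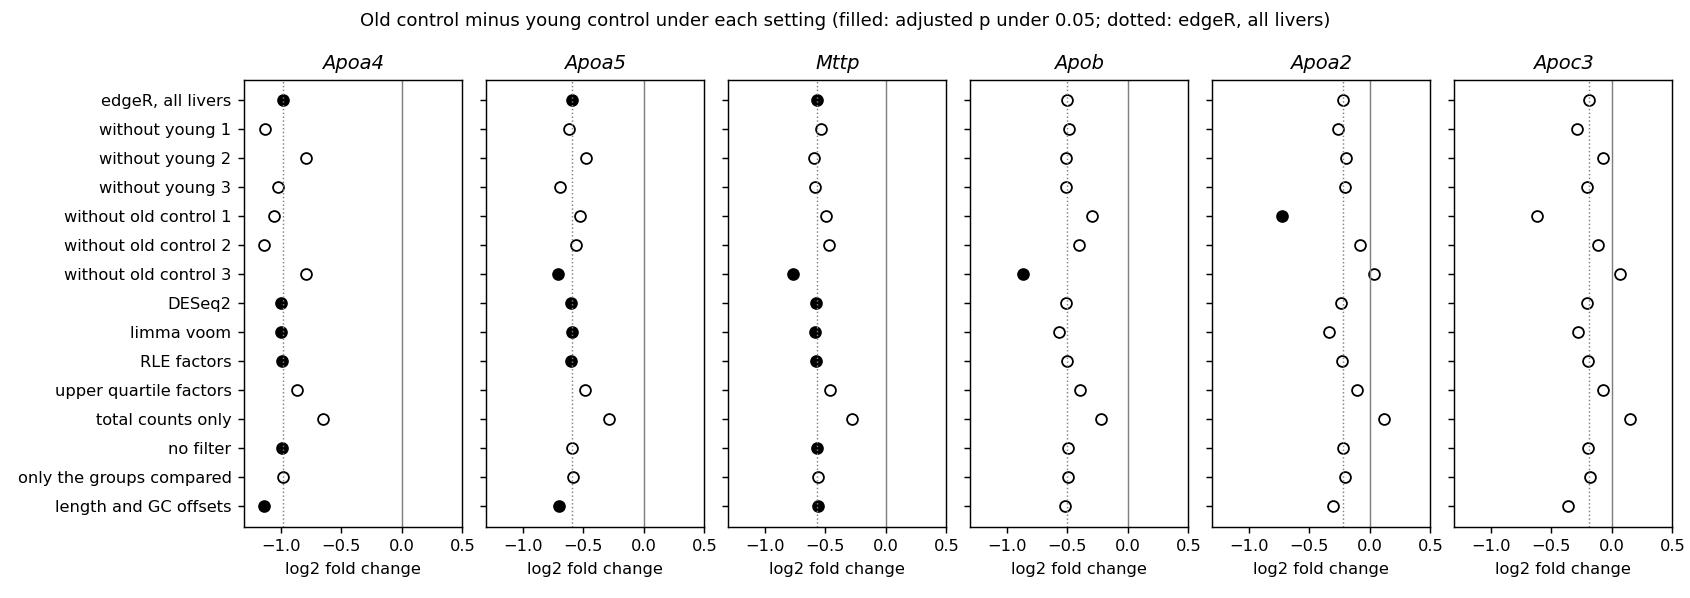
Log2 fold change of old control minus young control livers for 6 genes (x axis), fitted with all livers, without each of the 6 livers and under 8 other settings (rows), where filled points have an adjusted p under 0.05. Apoa4, Apoa5 and Mttp stay below 0 in every row, while among the rows with 1 liver left out Apob is filled only without old control replicate 3 and Apoa2 only without old control replicate 1.

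The lipase regulators other than Apoa5 did not pass. Apoc2 (chr7:19671579-19677941, minus strand), the lipase cofactor, had 171, 189 and 166 CPM in young and 238, 184 and 122 CPM in old control livers, which overlapped (log2 fold change 0.05 (SE 0.21), edgeR adjusted p = 0.882). Its level is uncertain, because the table also lists a read-through entry, Apoc4-apoc2, with 4745 to 9214 counts per liver against 2553 to 4851 for Apoc2, and the way shared reads were assigned is not given in the sources used here. Apoc2 counted together with this entry and Apoc4 gave 0.007 on the log2 scale (adjusted p = 0.986). Apoc3 (chr9:46232933-46235636, minus strand), the lipase inhibitor, had 1694, 2267 and 1931 CPM in young and 2598, 1537 and 1030.2 CPM in old control livers, so old control replicates 1 and 3 lay on either side of the young range. Its log2 fold change was -0.19 (SE 0.29) (edgeR adjusted p = 0.665). Apoc1 (chr7:19689481-19692660, minus strand), a small apolipoprotein of VLDL and HDL, had 3513, 4109.9 and 3941 CPM in young and 5736, 3194 and 2159 CPM in old control livers, with the same order of the 3 old control livers as Apoc3. The log2 fold change of Apoc1 was -0.061 (SE 0.30) (edgeR adjusted p = 0.903).

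Apoe (chr7:19696109-19699188, minus strand), the receptor ligand, had 20767, 21943 and 23267 CPM in young and 20932, 17002 and 16769 CPM in old control livers. Old control replicates 2 and 3 were below the young livers and replicate 1 was inside their range, and the fitted difference was -0.27 (SE 0.17) on the log2 scale (adjusted p = 0.264, edgeR). Macrophages also make Apoe, and old control replicate 2, which had the highest macrophage marker sum, was among the 2 livers with low Apoe in this group. The part of macrophages in the Apoe values was not tested. Apoa1 (chr9:46228580-46230466, plus strand), the main protein of HDL, had 10052, 8653 and 7404 CPM in young and 12252, 9562 and 7749 CPM in old control livers, which overlapped (log2 fold change 0.18 (SE 0.20), edgeR adjusted p = 0.545). Apoa2 (chr1:171225054-171226379, plus strand), another main protein of HDL, had 6226, 6835 and 6755 CPM in young livers, a narrow range. In old controls it had 9023, 4556 and 3461 CPM, from well above to well below that range. Its log2 fold change was -0.22 (SE 0.29) (edgeR adjusted p = 0.61). Without old control replicate 1 it was -0.72 with an adjusted p of 0.02, and without replicate 3 it was 0.036 with an adjusted p of 0.917.

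**Figure D3:**
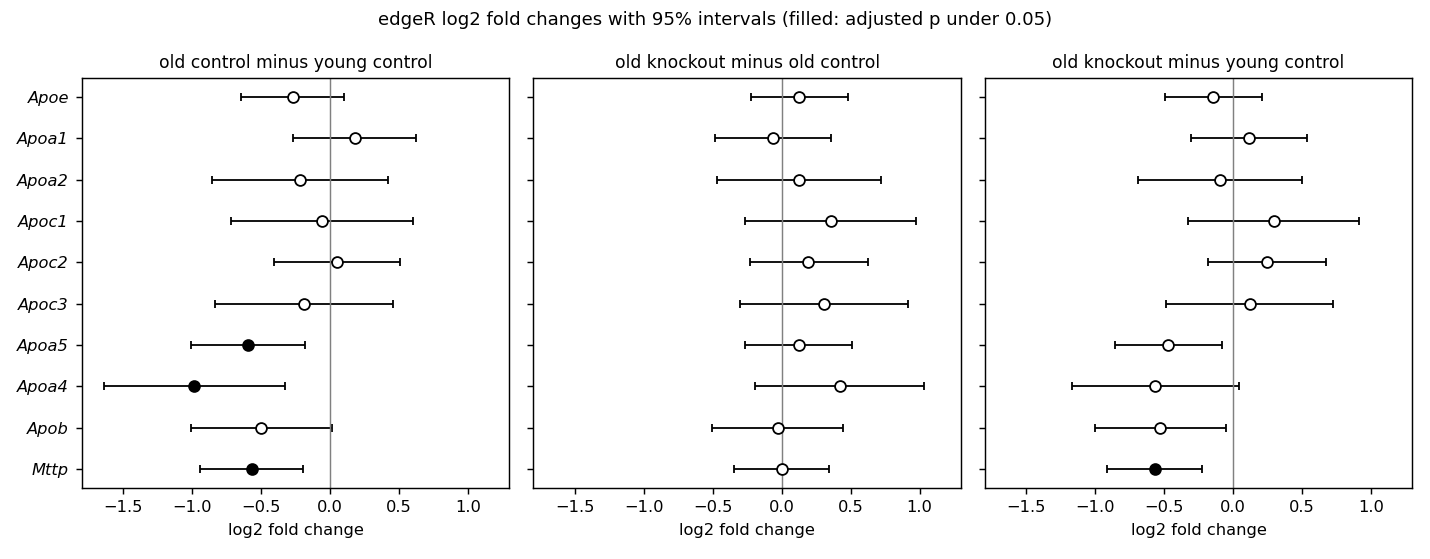
EdgeR log2 fold changes (x axis) with 95% intervals for the 10 genes in 3 comparisons of groups, where filled points have an adjusted p under 0.05. Apoa4, Apoa5 and Mttp are filled in the age comparison, Mttp alone in old knockout minus young control, and none in old knockout minus old control.

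The wide spread of the old controls was shared by most of the 10 genes. The coefficient of variation was largest in old controls for 8 of them (all but Apoa4 and Apoa5), against 63% of all genes tested. For Apoa2 it was 51.9% in old controls and 5.01% in young livers, for Apoc1 49.8% and 7.99%, and for Apob 39.7% and 2.07%. The old control livers were ordered replicate 1, then 2, then 3 from high to low for 6 of the 10 genes (Apoa1, Apoa2, Apoc1, Apoc2, Apoc3 and Apoe), against 26.6% of all genes tested. Apoa5 and Apob had the reverse order, as did 25.7% of all genes. The 6 genes have longest transcripts of 518 to 1408 bases, Apoa5 has 2515 and Apob 13934. By the median transcript Apob (7771.5 bases) is still longer than the 6 genes, but Apoa5 (611) is inside their range (385.5 to 818.5).

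Beyond the 10 genes, a difference between sets of long and short transcripts was present in some of these livers. For the 1359 genes with the longest transcripts (at least 6624 bases) and the 1360 with the shortest (at most 1342 bases), the median deviation from the 10-liver mean of log2 CPM was higher by 0.45 for the long genes in old control replicate 3. It was -0.16 for the same difference in old control replicate 1 and 0.014 in replicate 2. In young replicates 1, 2 and 3 this difference was 0.088, -0.16 and 0.045. In knockout replicates 1, 2, 3 and 4 it was -0.094, -0.086, 0 and -0.11. Of the 10 genes, 5 are in the short set and Apob is in the long one. The difference between Apob and Apoa2 in centred log2 CPM was 1.21 in old control replicate 3, -1.24 in replicate 1 and 0.06 in replicate 2. In young replicates 1, 2 and 3 it was 0.36, 0.18 and 0.19, and in knockout replicates 1, 2, 3 and 4 it was -0.11, -0.42, 0.08 and -0.31. Young replicate 2 and old control replicate 1 were thus alike in the difference along length and unlike in that between Apob and Apoa2. The part of transcript length in these patterns was not tested. With offsets for length and GC content, chosen after the data were seen, Apoa4, Apoa5 and Mttp still passed in the age comparison, with log2 fold changes of -1.14, -0.70 and -0.56.

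**Figure D4:**
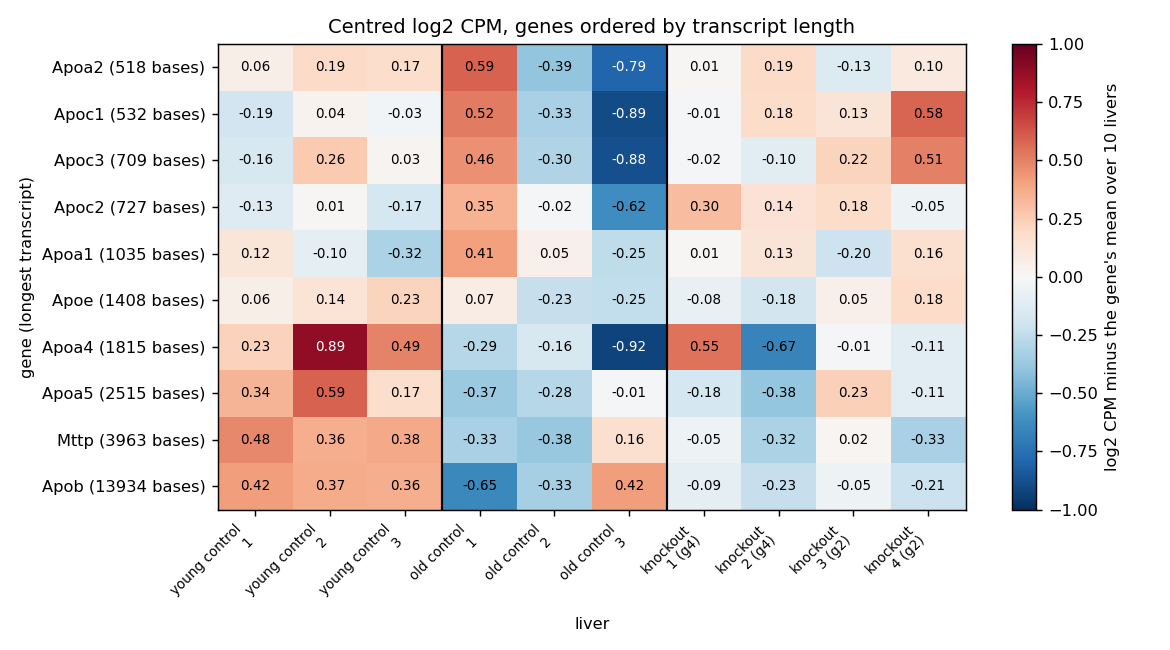
Log2 CPM of each gene minus its mean over the 10 livers, with livers in columns by group and genes in rows from the shortest to the longest transcript. Old control replicate 1 runs from high at the short genes (Apoa2 0.59) to low at Apob (-0.65), and replicate 3 from low (Apoa2 -0.79) to high (Apob 0.42). Apoa4 (1815 bases) breaks the order in replicate 3, where its value of -0.92 is lower than those of all shorter genes.

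Pairs of the 10 genes were described by the root mean square difference of their centred log2 CPM over the 10 livers, where a small value means a like pattern. The closest pairs were Apoc1 with Apoc3 (0.12), which lie on different chromosomes, and Apob with Mttp (0.14), the assembly partners, followed by Apoa5 with Mttp (0.16). The farthest was Apob with Apoc1 (0.67). Genes of 1 cluster could be far apart: Apoa1 and Apoa4, both on chromosome 9, differed by 0.60. The same measure over all tested genes outside the 10, for the 4 with the largest variation, named Cry1, Wdr74 and Slc25a29 for Apoa4 (0.23 to 0.24) and Mrpl33, Ndufa5 and Atp5j2 for Apoc1 (0.078 to 0.098). For Apoc3 they were Emc9, Fam195a and 1600002K03Rik (0.1 to 0.11), and for Apoa2 Ccdc84, Fmc1 and Ndufs7 (0.096 to 0.1). The livers share library preparation and 1 normalisation, so these are descriptions of 10 profiles.

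Ratios of counts within a liver do not depend on the scaling between libraries. Counts of Apoa4 per 100 of Apoa1 were 3.36, 6.15 and 5.47 in young and 1.92, 2.70 and 1.96 in old control livers, without overlap. In the knockout livers they were 4.51 and 1.79 with guide 4 and 3.55 and 2.57 with guide 2. A two-sided exact permutation test of the first pair of groups gave p = 0.1, the smallest that 3 against 3 livers allow, and 0.32 after Benjamini-Hochberg adjustment over 8 ratios. Counts of Mttp per 100 of Apob were 10.6, 10.1 and 10.3 in young and 12.7, 9.80 and 8.49 in old control livers (exact permutation p = 0.9). The assembly pair thus had overlapping ratios while Apoa4 and Apoa1, neighbours on chromosome 9, had ratios that did not overlap. The other 6 ratios tested overlapped between the ages.

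The comparison of old Cd44 knockout with old control livers asked how editing Cd44 in hepatocytes alters these genes in aged liver. None of the 10 genes passed (edgeR adjusted p = 0.798 to 1), and none of the 10 had groups without overlap, against 6.1% of all genes. No gene of the 13909 passed with edgeR (0% called), where 916 had an unadjusted p under 0.05, and DESeq2 called 7. The median log2 fold change was 0.13 over the 10 genes and -0.024 over all genes. The comparisons with age and with knockout share the old control livers, so their values for a gene are given side by side and not correlated.

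Apoa4 had 419.6 and 181 CPM in the guide 4 and 285 and 266 CPM in the guide 2 livers, so that 3 of the 4 lay above all old controls and guide 4 replicate 2 lay between them. Its log2 fold change was 0.42 with a 95% interval of -0.19 to 1.03, beside -0.98 for age. For Mttp the guide 4 livers had 259.9 and 216 CPM and the guide 2 livers 273 and 215, inside the old control range. The Mttp log2 fold change was 0 to 3 decimals with an interval of -0.35 to 0.35. Apob had 2488 and 2266 and 2558 and 2289 CPM, a tight group between old control replicates 2 and 3 (log2 fold change -0.029, interval -0.50 to 0.45). Apoa5 had 1273 and 1102 and 1692 and 1332 CPM (log2 fold change 0.12, interval -0.26 to 0.51).

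The small apolipoproteins were within the broad old control range or near it. Apoc1 was at 3975 and 4557 CPM in the guide 4 and 4393 and 5994 CPM in the guide 2 livers, and its log2 fold change was 0.36 (interval -0.27 to 0.98). Apoc3 had 1869.9 and 1763 and 2208 and 2690 CPM, with a log2 fold change of 0.31 (interval -0.30 to 0.92). Apoc2 had 231 and 207 and 212 and 181 CPM, with a log2 fold change of 0.20 (interval -0.23 to 0.62). The HDL proteins and the remnant ligand had knockout means inside the range of the old control livers. The guide 2 mean of Apoe, 21612 CPM, was above every old control liver (at most 20932 CPM). Apoa1 had 9295 and 10086 and 8026 and 10336 CPM (log2 fold change -0.063, interval -0.48 to 0.35). Apoa2 had 6043 and 6841 and 5459 and 6412 CPM (log2 fold change 0.12, interval -0.47 to 0.72). Apoe had 18876 and 17574 and 20651 and 22573 CPM (log2 fold change 0.13, interval -0.22 to 0.48). The intervals leave room for changes in either direction for every 1 of the 10 genes.

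Old knockout livers were also compared with young controls, a contrast in which age and editing cannot be told apart. Mttp alone of the 10 genes passed and was lower (log2 fold change -0.57 (SE 0.16), edgeR adjusted p = 0.0423), where 11.6% of all genes passed, 6.64% higher and 4.97% lower. The knockout mean was 241 ± 29.9 CPM (SD, n = 4) against 357 ± 15.5 CPM (SD, n = 3) in young livers, and every knockout liver was below every young one. This call was lost without any 1 of the 7 livers, with adjusted p-values of 0.0502 to 0.132 and log2 fold changes of -0.64 to -0.51. It was also lost with upper quartile scaling, with total counts and without the filter. Apob was the other gene without overlap, against 18.8% of all genes in this direction: all 4 knockout livers were below the young ones, at 2400.4 ± 145 CPM (SD, n = 4) against 3459 ± 71.6 CPM (SD, n = 3). Its log2 fold change of -0.53 (SE 0.21) did not pass (edgeR adjusted p = 0.115). For Apoa5 the log2 value was -0.47 (adjusted p = 0.0937) and for Apoa4 -0.56 (adjusted p = 0.175). For the other 6 genes the values ran from -0.14 for Apoe to 0.29 for Apoc1, with adjusted p-values of 0.393 to 0.831.

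The 2 guides were compared with each other, 2 livers against 2, in a fit with a coefficient for each guide. No gene of the 10 passed (edgeR adjusted p = 1 for each), and 3 genes of all tested did (0.0216%). Apoa5, Apoc3 and Apoe were lower in both guide 4 livers than in both guide 2 livers, as were 20.4% of all genes. The guide 4 livers had 18876 and 17574 CPM of Apoe and the guide 2 livers 20651 and 22573, with a fitted difference of -0.25 on the log2 scale (interval -0.70 to 0.21). Apoc3 had a log2 fold change of -0.43 (interval -1.22 to 0.36) and Apoa5 of -0.35 (interval -0.83 to 0.13). Against old controls, no gene of the 10 passed with guide 2 (3 genes of all tested, 0.0216%) or with guide 4 (0 of all tested, 0%, with 544 at an unadjusted p under 0.05 and 1 called by DESeq2). Both guide 2 livers were above all old controls for Apoa4, as were 9.56% of all genes in that direction, with a log2 fold change of 0.36 (interval -0.40 to 1.12). The comparison for Apoa4 with guide 4 gave 0.48 (interval -0.28 to 1.24).

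Other genes of lipoprotein handling were read from 7 lists chosen by role, of which the age comparison is described. Among 20 partners of lipoprotein assembly and secretion, 4 fell and 1 rose. These 5 of 20 are near the 22.8% of all genes that passed in either direction, where 8.66% of all genes were lower and 14.1% higher. The median log2 fold change of the list was -0.35 beside 0.035 over all genes. Vmp1, an endoplasmic reticulum protein needed for the release of lipoproteins, fell most (122, 96.7 and 112 CPM in old controls against 199.6, 226 and 193 in young livers, log2 fold change -0.90 (SE 0.13), edgeR adjusted p = 0.00667). Aadac, a lipid hydrolase, fell as well (-0.56), as did Sar1b, the coat GTPase that moves large lipoproteins out of the endoplasmic reticulum (-0.49), and Pla2g12b, a phospholipase relative needed to load VLDL with lipid (-0.43). Sort1, a sorting receptor that binds APOB, rose (1.03). Its highest level was in old control replicate 2 (24.5 CPM), the liver with the highest macrophage marker sum. The part of other cells in the Sort1 values was not tested.

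Among 8 genes of lipase control, 2 rose and 2 fell, and the median log2 fold change was -0.22. Lpl, the lipase itself, rose by 1.94 on the log2 scale, from 18.8, 15.4 and 14.2 CPM in young to 41.4, 109.9 and 33.8 CPM in old control livers. Without old control replicate 2 the Lpl value was 1.22 (edgeR adjusted p = 0.031), and without young replicate 2 it did not pass (adjusted p = 0.0593). Gpihbp1, which holds the lipase on capillary endothelium, rose by 1.19. The lipase inhibitor Angptl4 was lower, at -1.73 on the log2 scale (adjusted p = 0.00772, edgeR), and so was the lipase maturation factor Lmf1, at -0.40. Lpl and Gpihbp1 are also made by cells other than hepatocytes: Lpl was highest in old control replicate 2, the liver with the highest macrophage marker sum, and 8 of 10 endothelial markers rose with age. Their part in these values was not tested. Among 12 uptake receptors and their regulators, Vldlr (1.63), Sorl1 (1.43), Mylip (1.23), which degrades the LDL receptor, and Dab2 (1.07) rose and none fell. Of all genes tested, 22.8% passed and 14.1% were higher. Vldlr and Sorl1 were low, with 8 to 66 and 16 to 103 counts per liver. Leaving out 1 liver ended the call of Dab2 in 4 of 6 fits, and those of Vldlr, Sorl1 and Mylip in 3 of 6 each. Without old control replicate 2 the Dab2 value was 0.59. Like Lpl, Dab2, Mylip and Vldlr were highest in old control replicate 2 (42.3, 17.8 and 3.01 CPM), while Sorl1 was highest in replicate 3 (4.91 CPM). The part of cells other than hepatocytes in these 4 genes was not tested. Among 12 genes of HDL formation, the cholesterol exporters moved apart: Abca1, which loads APOA1, fell (-0.93) and Abcg1, abundant in macrophages, rose (1.42). None of 7 other apolipoproteins passed in the age comparison, and Saa4, an HDL protein, was lower in knockout than in young livers (log2 fold change -1.39 (SE 0.38), adjusted p = 0.041). The Saa4 call was lost without any 1 of the 7 livers (adjusted p = 0.0512 to 0.132).

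Among 24 transcription factors and coregulators with known actions on these genes, 3 fell and 3 rose, a share near the 22.8% of all genes that passed, and the median was -0.099. Hnf4a, a hepatocyte factor, had 1166, 1187 and 1068 CPM in young and 437, 475 and 842 CPM in old control livers. All of the latter were lower (log2 fold change -0.96 (SE 0.22), edgeR adjusted p = 0.0147). The part of Hnf4a in the values of the 10 genes was not tested. Prox1, a corepressor of HNF4A, had a log2 fold change of -1.02 and Cebpb of -0.77, both lower. Srebf1, which drives lipid synthesis, rose (1.29), as did the coactivator Ppargc1a (0.94) and the nuclear receptor Nr2f2 (0.84). Another list held 13 genes that respond to PPARalpha or CREBH, factors of the fasting response that are also known to act on Apoa4 and Apoa5. Of these 13, 3 fell and none rose, where 22.8% of all genes passed in either direction and 8.66% were lower. The 3 were Acot1 (-1.51), Plin2 (-1.29) and Plin5 (-0.95). The list median was -0.68, with 10 values below 0 and 3 above 0. The part of these factors in the values of Apoa4 and Apoa5 was not tested. In the comparison of guide 4 with guide 2, 12 of these 13 genes were higher with guide 4 and none passed. The list median was 0.58, beside 0.003 over all genes, while Apoa5 was -0.35 and Apoa4 0.13. The 2 guide 2 livers were not alike, as every gene of this list was lower in knockout replicate 4 than in replicate 3. Plin2 fell from 524 CPM in replicate 3 to 276 in replicate 4 (guide 4: 557, 617). Cpt1a went from 280 to 172 CPM (guide 4: 279, 272). The part of this 1 liver in the count was not tested.

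In the comparison of knockout with old control livers no gene of these 7 lists passed, with list medians between -0.23 for uptake receptors and 0.32 for the PPARalpha and CREBH genes. Of the 24 list genes named here that passed in the age comparison, 7 passed whichever of the 6 livers was left out (Abca1, Angptl4, Gpihbp1, Nr2f2, Plin5, Srebf1 and Vmp1). The number of the 24 lost was 7, 17 and 5 without young replicates 1, 2 and 3, and 2, 14 and 0 without old control replicates 1, 2 and 3.

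**Figure D5:**
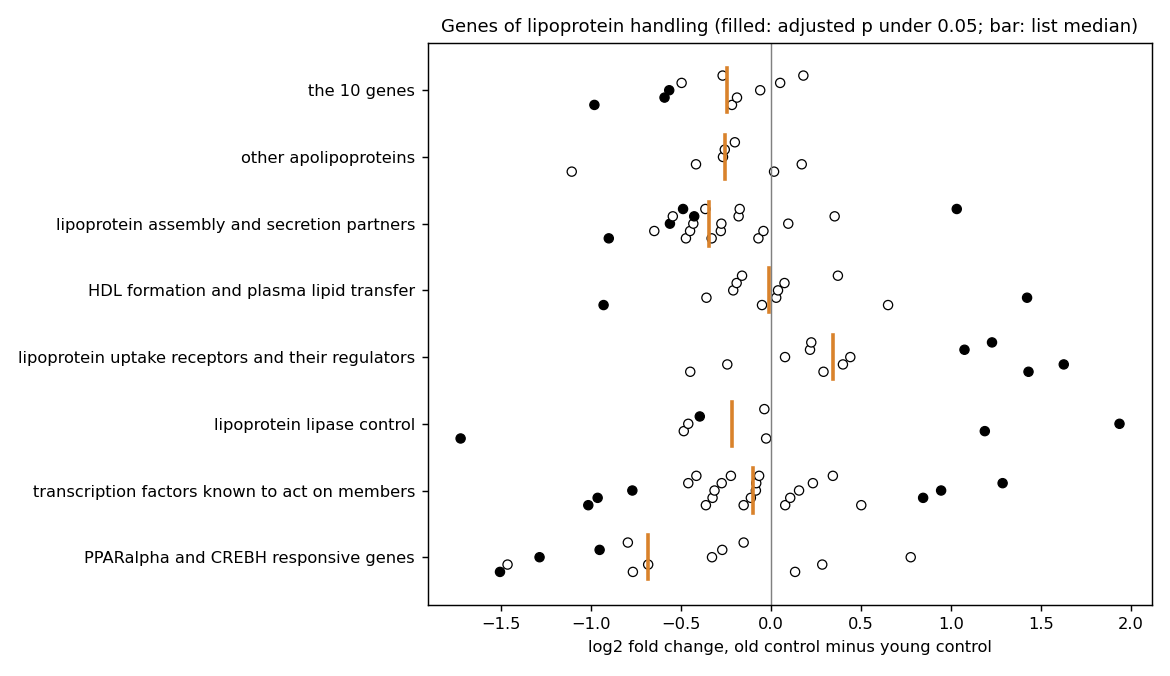
Log2 fold change of old control minus young control livers (x axis) for every tested gene of 8 lists (rows), 1 point per gene, filled where the adjusted p was under 0.05, with a bar at the list median. The medians of the assembly partners (-0.35) and of the PPARalpha and CREBH genes (-0.68) lie below 0 and that of the uptake receptors (0.34) lies above 0.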

How the data were processed

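RNA was measured in 10 whole livers. Per the labels' protocols, Watchmaker reagents were used to make libraries of polyadenylated RNA, which were read from both ends. Per the submitters' processing notes, FastQC 0.11.8, Trim Galore 0.4.4, STAR 2.5.3a, HOMER and the mm10 build were used, and the counting settings, annotation and use of strand are not given in the sources used here. The authors deposited 1 table of raw counts per gene symbol. Overlapping genes and antisense partners cannot be told apart in it.

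Counts were tested with edgeR 4.0.16 in R 4.3.3: the quasi-likelihood test on all 10 libraries, 1 coefficient per group (or per guide), TMM factors, and the filterByExpr filter with a minimum count of 10 and a minimum total of 15. Adjustment was by Benjamini-Hochberg over 13909 genes, with a threshold of 0.05 for the adjusted p-value. The standard error is the log2 fold change divided by the square root of F. Centred log2 CPM used a prior count of 2. Total counts of 15821198 to 21710228 per liver set the counting precision, and reads carry no molecular identifiers, so floors cover counting error only. No pair of livers within a group was as alike as repeat counts of 1 library (chi-square per degree of freedom 21.6 or more), so no library was taken as a repeat deposit of another. This does not show that libraries came from separate animals. Alternatives were DESeq2 1.42.0, limma voom 3.58.1, other scalings, no filter, fewer groups, each liver left out, and 2 added after the data were seen (offsets for transcript length and GC content with a lowess span of 0.3, and a joint count of Apoc2). The script was tested on simulated data. GENCODE M21 matched 97.1% of symbols.

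The 10 genes, the lists and the tests were chosen with earlier results of these data known. All 10 genes are named. From each list at most 6 genes with an adjusted p under 0.05 in any of 6 comparisons are named, by size of change, and for the 4 most variable of the 10 genes the 3 nearest genes by pattern. Some genes of the lists are not reported here. Replicate numbers only name livers.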

Additional observations from a re-analysis of the deposited data

How the results depend on the processing

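No paired analysis was possible because no replicate number is given in any label used here. Over 60 fold changes of the 10 genes (10 genes in 6 comparisons), 826 values from alternatives were computed: 712 kept their sign and side of the threshold, 36 lost a call, 4 gained one and 74 changed sign.

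The number of genes called with age was 3172 (1967 higher), 1192 when only these groups were fitted, and 396 to 5327 with 1 liver left out. The 396 came without young replicate 2 and the 5327 without old control replicate 3. Upper quartile scaling called 3226 (2503 higher) and total counts 4223 (3869 higher). In knockout against old control 0 genes were called, 7 by DESeq2 and 0 to 3 with 1 liver left out. In knockout against young 1614 were called (923 higher), 2737 by DESeq2, 969 by limma voom, 3585 (3332 higher) with total counts, 4223 with these groups only, 1765 (1335 higher) with upper quartile scaling, and 56 to 1652 with 1 liver left out. Between guides 3 were called, 72 by DESeq2, 10 without the filter, 31 with these groups only and 0 with 1 liver left out. With guide 2 against old control 3 were called, 109 by DESeq2, 10 by limma voom, 25 without the filter, 1 with these groups only and 0 to 3 with 1 liver left out. With guide 4 against old control 0 were called and 1 by DESeq2. Where an arm kept 1 liver, that liver was assumed to vary like the other groups. The cause of these shifts was not tested.

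With limma voom, the log2 fold changes on the other side of 0 were Apoc2 -0.001 in the age comparison, Apob 0.041 in knockout against old control, Apob 0.053 in guide 2 against old control, Apob 0.028 and Apoe 0.006 in guide 4 against old control. With upper quartile scaling, the log2 fold changes on the other side of 0 were Apoc1 0.056 in the age comparison, Apoa2 0.018 in knockout against young. With scaling to total counts, the log2 fold changes on the other side of 0 were Apoa2 0.11, Apoc1 0.27, Apoc3 0.15 and Apoe 0.04 in the age comparison, Apob 0.011 in knockout against old control, Apoa2 0.23 and Apoe 0.17 in knockout against young, Apob 0.018 in guide 2 against old control, Apob 0.003, Apoe 0.012 and Mttp 0.015 in guide 4 against old control. With the length and GC offsets, the log2 fold changes on the other side of 0 were Apoc2 -0.10 in the age comparison, Apob 0.006 in knockout against old control, Apoa1 -0.09 and Apoc3 -0.096 in knockout against young, Apob 0.05 in guide 4 against guide 2, Apoa2 -0.039 in guide 2 against old control, Apob 0.031 and Mttp 0.013 in guide 4 against old control. With no filter, the log2 fold changes on the other side of 0 were Apoe 0.002 in guide 4 against old control. With counting Apoc2 with its overlapping entries, the log2 fold changes on the other side of 0 were Apoc2 -0.10 in guide 4 against guide 2. For the age comparison, values with 1 liver left out ran from -0.011 to 0.32 for Apoa1, -0.20 to 0.27 for Apoc2, -0.53 to 0.21 for Apoc1, -0.72 to 0.036 for Apoa2 and -0.62 to 0.07 for Apoc3. For knockout against old control, values with 1 liver left out ran from -0.21 to 0.13 for Apoa1, -0.13 to 0.63 for Apoa2, -0.001 to 0.24 for Apoa5, -0.23 to 0.34 for Apob and -0.023 to 0.44 for Apoc2. For knockout against young, values with 1 liver left out ran from -0.011 to 0.23 for Apoc3. For guide 4 against guide 2, values with 1 liver left out ran from -0.60 to 0.61 for Apoa4, -0.11 to 0.055 for Apob, -0.20 to 0.15 for Mttp and -0.092 to 0.27 for Apoa1. For guide 2 against old control, values with 1 liver left out ran from -0.30 to 0.086 for Apoa1, -0.17 to 0.21 for Mttp, -0.19 to 0.57 for Apoa2, -0.10 to 0.36 for Apoc2 and -0.22 to 0.35 for Apob. For guide 4 against old control, values with 1 liver left out ran from -0.17 to 0.17 for Apoa1, -0.056 to 0.11 for Apoe, -0.31 to 0.31 for Cd44, -0.25 to 0.96 for Apoa4, -0.17 to 0.053 for Apoa5, -0.25 to 0.32 for Apob, -0.16 to 0.18 for Mttp, -0.074 to 0.69 for Apoa2, -0.064 to 0.67 for Apoc1 and -0.18 to 0.50 for Apoc3. Depth does not limit these genes, each with at least 2553 counts in every liver.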
